A study of Mus musculus with 8 samples.

Results

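Mast cell genes were followed in embryonic mouse skin in which Cyp26b1, the gene of a cytochrome P450 enzyme that degrades retinoic acid, is disrupted. The set consists of 10 genes chosen by name (Cma1, Mcpt4, Tpsb2, Tpsab1, Cpa3, Ms4a2, Fcer1a, Hdc, Mrgprb1 and Gata2), and all 10 were found among the 21882 gene symbols of each of the 3 deposited tables. All embryos were C57BL/6. The whole skin of Cyp26b1-/- and of wild-type embryos was taken at embryonic day 16.5 (E16.5), and the 2 libraries of each genotype are pooled into 1 value per gene. Separated dermis and epidermis were taken at embryonic day 18.5 (E18.5) from En1cre;Cyp26b1f/- mutants and Cyp26b1f/+ controls, with 1 library per genotype and tissue. En1cre expresses the Cre recombinase from the Engrailed 1 locus, which is active in precursors of much of the trunk dermis, and the E18.5 mutant also lacks an allele of Cyp26b1 in all its other cells, which the control does not. Levels are given in FPKM (fragments per kilobase of transcript, relative to all mapped fragments), a unit that corrects for length and so allows genes to be compared. Read depth is unknown, and neither comparison offers a spread between animals.

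Mast cells arise from blood-forming progenitors, settle in connective tissue, and in skin are known for dermal granules packed with proteases, histamine and heparin. Stem cell factor, the product of Kitl, acts on the receptor Kit to keep them alive, and antigen-bound IgE triggers granule release through the high-affinity IgE receptor. As connective tissue mast cells mature, they are known to accumulate chymases and tryptases. Among the members, Cma1 and Mcpt4 encode chymases, Tpsb2 and Tpsab1 tryptases, and Cpa3 a carboxypeptidase stored with them. Hdc makes histamine, Fcer1a and Ms4a2 encode the alpha and beta chains of the IgE receptor, Mrgprb1 belongs to the Mas-related receptors, and Gata2 is a transcription factor needed for mast cell formation.

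GATA factors bind short sequences with a GATA core, and Gata2 is itself a member. The 250 bases before the annotated start were therefore read for the members from a RefSeq promoter table of build GRCm38.p6, which held 8 of the 10 genes, in 9 windows. The hexamers AGATAA and AGATAG and the hexamers TGATAA and TGATAG were searched on both strands. A match was present in the window of each of the 7 genes other than Gata2, and in neither window of Gata2, against 26.5% of 32851 windows of the same length. No match overlapped CACGTG or CATGTG, sequences read by Mitf, or the retinoic acid receptor half-sites AGGTCA and AGTTCA. Those Mitf sequences occurred in 1 member window (17.6% of all windows) and the half-sites in 2 (24.2% of all windows). The windows of the chymases Cma1 and Mcpt4, of Cpa3 and of Hdc are shown because these genes carry most of the results, and that of Ms4a2 because it holds 3 matches. They lie on the minus strand at chr14:55944676-55944925, chr14:56062311-56062560, chr3:20242182-20242431, chr2:126618679-126618928 and chr19:11623720-11623969 of GRCm38.p6, in the order printed. They are written 5′ to 3′, with capitals marking the GATA hexamers of either strand.
Cma1: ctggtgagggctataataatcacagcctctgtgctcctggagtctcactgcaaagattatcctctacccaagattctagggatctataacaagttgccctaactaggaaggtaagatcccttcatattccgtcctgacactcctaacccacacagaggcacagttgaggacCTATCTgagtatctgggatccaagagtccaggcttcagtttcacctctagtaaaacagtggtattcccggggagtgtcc
Mcpt4: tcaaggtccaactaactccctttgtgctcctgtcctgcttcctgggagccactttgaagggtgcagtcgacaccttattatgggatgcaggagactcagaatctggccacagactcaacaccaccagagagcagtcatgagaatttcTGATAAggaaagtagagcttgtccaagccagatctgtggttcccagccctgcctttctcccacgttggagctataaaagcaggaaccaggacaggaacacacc
Cpa3: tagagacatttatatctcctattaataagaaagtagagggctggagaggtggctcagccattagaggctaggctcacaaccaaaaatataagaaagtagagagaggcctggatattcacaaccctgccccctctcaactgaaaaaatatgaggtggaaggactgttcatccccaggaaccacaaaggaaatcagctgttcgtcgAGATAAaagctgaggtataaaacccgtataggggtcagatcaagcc
Hdc: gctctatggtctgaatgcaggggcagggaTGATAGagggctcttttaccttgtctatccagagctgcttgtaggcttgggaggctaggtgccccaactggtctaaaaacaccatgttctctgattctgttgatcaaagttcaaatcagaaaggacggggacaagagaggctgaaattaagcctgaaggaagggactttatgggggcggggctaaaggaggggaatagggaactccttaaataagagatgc
Ms4a2: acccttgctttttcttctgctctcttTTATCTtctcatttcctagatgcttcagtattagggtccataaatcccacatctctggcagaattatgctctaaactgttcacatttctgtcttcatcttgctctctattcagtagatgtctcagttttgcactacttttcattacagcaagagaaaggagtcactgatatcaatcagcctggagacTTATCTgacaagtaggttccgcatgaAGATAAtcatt
The first base of the match lies 79 bases before the start in Cma1, 103 in Mcpt4, 46 in Cpa3 and 221 in Hdc, and the matches of Ms4a2 begin 224, 37 and 11 bases before it. A match describes the letters of the window and not a bound site.

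On the mm9 build of the deposited tables, both chymase genes lie on the minus strand of chromosome 14, Cma1 from 56560288 to 56563498 and Mcpt4 from 56678581 to 56681147. The tryptase genes are neighbours on chromosome 17, with Tpsab1 from 25480190 to 25482507 and Tpsb2 from 25503278 to 25505037. To see how far reads could be split between relatives, every run of 50 bases in the annotated transcripts was compared between genes. Tpsb2, Tpsab1, Cma1 and Cpa3 shared 0 such runs with any other gene, and Mcpt4 shared 6.16% of its runs, with Cma2 and Mcpt9. Tpsab1 has 2 listed transcripts, of which NM_031187 carried its whole level and NR_033521 was listed at 0 in every column.

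Several facts of the whole data set touch these genes. Summed over its 2 transcripts, Cyp26b1 itself stood at 58.2 FPKM in skin labelled Cyp26b1-/- (called null skin here) and 35.0 FPKM in wild-type skin, at 102 FPKM in mutant and 54.2 FPKM in control dermis, and at 13.7 FPKM in mutant and 4.97 FPKM in control epidermis. A whole-transcript table cannot show a missing exon, so these values do not check the genotypes, and each direction below rests on the labels. At E16.5 most genes had a higher FPKM in null skin, with a median deposited log2 fold of 0.475 over tested transcripts, and lens and retina genes summed to 1985 FPKM in null and 69.6 FPKM in wild-type skin. Rose and fell at E16.5 therefore refer to the deposited test statistic recomputed after subtraction of that median, with Benjamini-Hochberg adjustment over all tested transcripts at 0.05, a setting chosen with the shift known. By this test 8.27% of 16303 tested genes rose and 10.1% fell. The q-values of the authors' deposited table put 54.6% of genes higher and 3.46% lower.

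The 10 genes together reached nearly the same level at E16.5 in both genotypes, 1431 FPKM in null skin and 1408 FPKM in wild-type skin, but single genes differed. In whole skin, fewer mast cells and less RNA per mast cell cannot be told apart. Against the median transcript, 1 member rose (Fcer1a) and 4 fell (Mcpt4, Cma1, Hdc and Gata2) of 10 tested. The q-values of the authors' deposited table instead gave 3 higher (Fcer1a, Tpsb2 and Tpsab1) and 1 lower (Mcpt4). Mcpt4 and Fcer1a were thus called in the same direction by both, and the calls of the other genes depend on the subtraction of the median. Over the 8 members that reached 1 FPKM in at least 1 genotype, as 14154 of all genes did, the median was a log2 fold of -0.52 relative to the median gene on the log2(FPKM + 1) scale. This median moved to -0.092 without the subtraction.

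**Figure D1:**
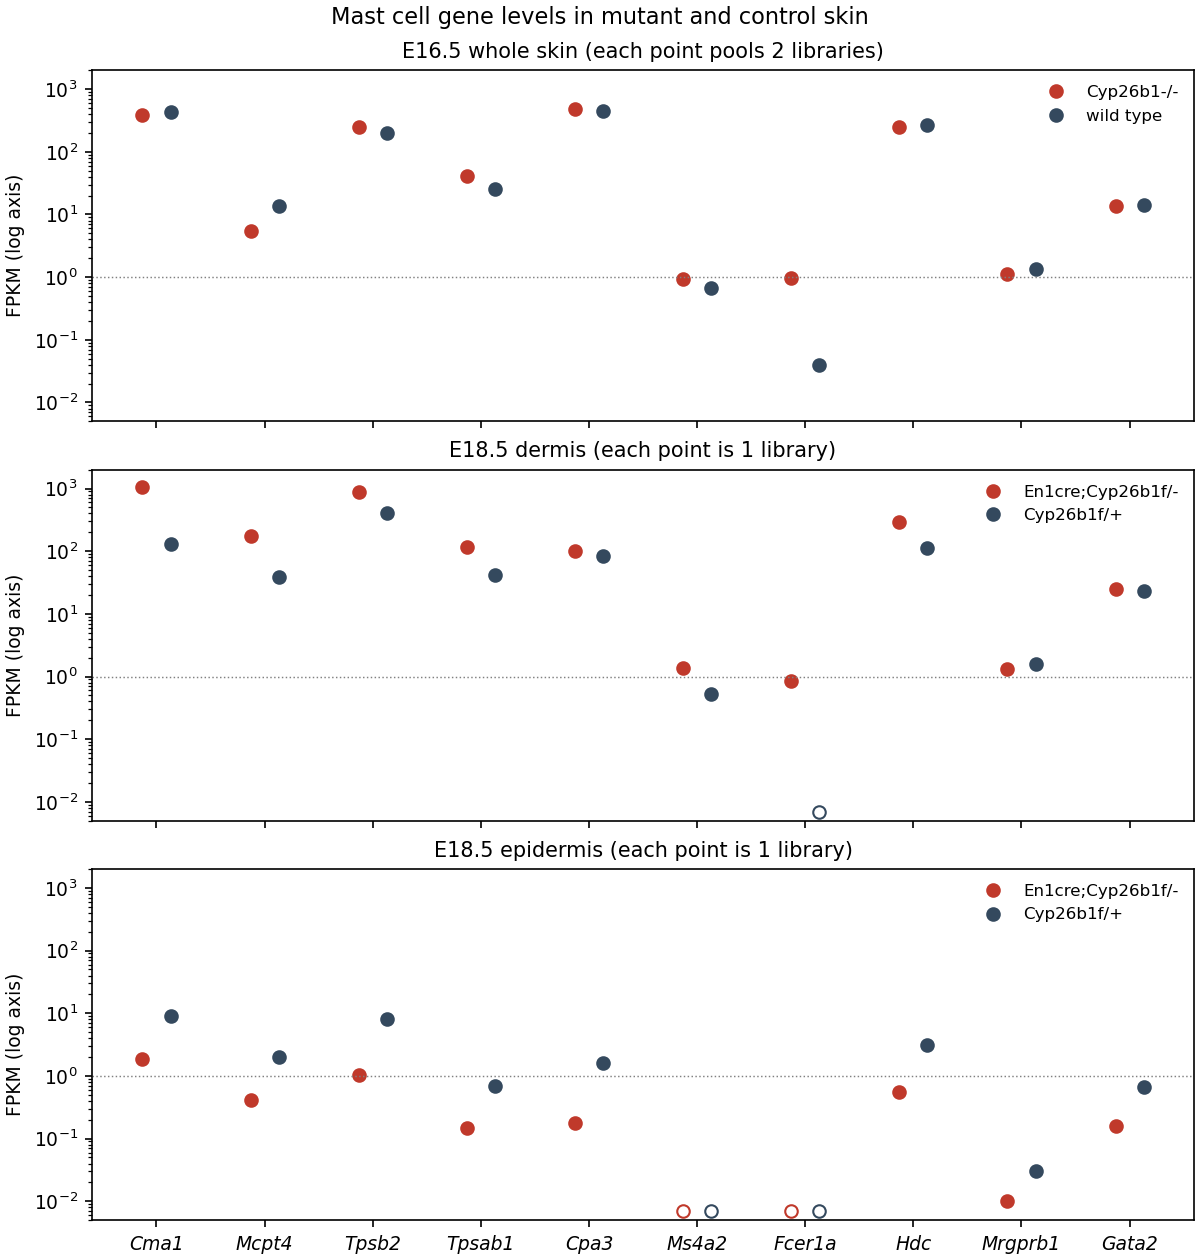
FPKM of each mast cell gene on a log axis in E16.5 whole skin (top), E18.5 dermis (middle) and E18.5 epidermis (bottom), mutant in red and control in dark blue; open circles at the bottom edge mark values listed at 0, and the dotted line marks 1 FPKM. Cma1 was at 391 FPKM in null and 429 FPKM in wild-type skin, at 1072 FPKM in mutant and 130 FPKM in control dermis, and at 1.88 FPKM in mutant and 8.96 FPKM in control epidermis.

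Of the chymases, Mcpt4 stood at 5.5 FPKM in null skin, against 13.5 FPKM in wild-type skin. It fell, with a deposited log2 fold minus the median of -1.77 ± 0.27 (SE implied by the test statistic; Benjamini-Hochberg adjusted p = 1.5e-09, on the authors' statistic after the subtraction). Cma1 was much more abundant, at 391 FPKM in null skin and 429 FPKM in wild-type skin. Relative to the median transcript it fell by 0.61 ± 0.15 on the log2 scale (adjusted p = 0.00061), while in the authors' deposited table it was not called (q = 0.45). The difference between the chymases does not depend on any scaling: the log2 fold of Mcpt4 was below that of Cma1 by -1.17 ± 0.31, with the SE computed as if the genes' errors were independent. Mcpt4 thus amounted to 0.0141 of Cma1 in null skin and 0.0315 of Cma1 in wild-type skin.

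Neither tryptase was called relative to the median. Tpsb2 was at 253 FPKM in null skin and 197 FPKM in wild-type skin, and its fold lay within 1 SE of the median transcript (-0.12 ± 0.14, adjusted p = 0.67 on the authors' statistic). For Tpsab1 the values were 40.9 FPKM in null skin and 25.2 FPKM in wild-type skin, again without a call relative to the median (0.23 ± 0.16, adjusted p = 0.39 on the authors' statistic). In the authors' deposited table both were called higher (q = 0.023 for Tpsb2 and q = 0.0001 for Tpsab1). Set against Cma1 rather than against all genes, the log2 fold of Tpsab1 was higher by 0.84 ± 0.22 and that of Tpsb2 by 0.49 ± 0.21. The tryptase genes therefore stood higher relative to the chymase genes in null skin than in wild-type skin whatever scaling is used.

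Cpa3 was the most abundant member in both E16.5 groups, at 477 FPKM in null skin and 455 FPKM in wild-type skin, and was not called (-0.41 ± 0.16 relative to the median, adjusted p = 0.053 on the authors' statistic). The histamine-forming enzyme gene Hdc was at 247 FPKM in null skin and 271 FPKM in wild-type skin and fell relative to the median (-0.61 ± 0.16, adjusted p = 0.0012), without a call in the authors' deposited table (q = 0.474). Hdc and Cma1 kept their proportion, as Hdc amounted to 0.63 of Cma1 in null skin and also in wild-type skin.

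The IgE receptor genes were near the limit of the tables. Fcer1a, the chain that binds IgE, was at 0.98 FPKM in null skin and 0.04 FPKM in wild-type skin, and rose with a wide error (4.15 ± 1.35 relative to the median, adjusted p = 0.016 on the authors' statistic). Ms4a2, the signalling beta chain, was at 0.94 FPKM in null skin and 0.68 FPKM in wild-type skin and was not called (adjusted p = 0.998 on the authors' statistic). Fcer1g, the gamma chain, which other immune cells also use, had 59.2 FPKM in null skin and 54.3 FPKM in wild-type skin and was not called (adjusted p = 0.16 on the authors' statistic). Mrgprb1 was at 1.11 FPKM in null skin and 1.35 FPKM in wild-type skin, without a call (-0.75 ± 0.30, adjusted p = 0.071 on the authors' statistic). Gata2 was at 13.7 FPKM in null skin and 14.3 FPKM in wild-type skin and fell only relative to the median (-0.53 ± 0.15, adjusted p = 0.0058; q = 0.783 in the authors' deposited table). Endothelial cells express Gata2 as well, and of 10 endothelial genes 0 rose and 0 fell at E16.5 (5 higher and 0 lower in the authors' deposited table). Over all tested genes 8.27% rose and 10.1% fell (54.6% higher and 3.46% lower in the authors' deposited table). Which cells carried the difference in Gata2 was not tested.

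**Figure D2:**
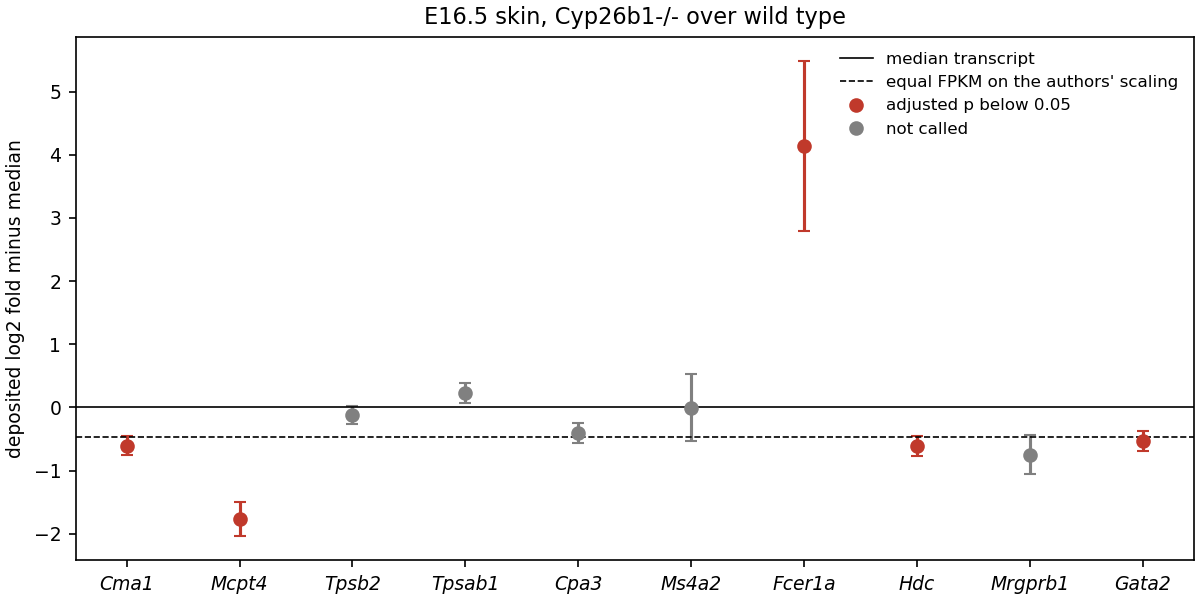
Deposited log2 fold (Cyp26b1-/- over wild-type skin, E16.5) minus the median transcript for each mast cell gene, with bars of 1 SE implied by the authors' test statistic; red points passed the test and the dashed line marks equal FPKM on the authors' scaling. Mcpt4 at -1.77 lies below both lines and Fcer1a at 4.15 above both. Cma1, Hdc and Gata2 lie close to the dashed line, and so does Cpa3 (-0.41), which was not called.

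A wider list of 38 other genes tied to mast cells was mixed at E16.5. It includes Kitl and Il33, which encode ligands of the receptors Kit and Il1rl1 and are not markers of mast cells themselves. Of 32 tested, 2 rose and 7 fell, and 6 were higher and 2 lower by the q-values of the authors' deposited table. Over all 16303 tested genes, 8.27% rose and 10.1% fell, and 54.6% were higher and 3.46% lower by those q-values. The genes of the list that rose were Alox5, which starts leukotriene synthesis, at 6.14 FPKM in null skin and 1.92 FPKM in wild-type skin, and the alarm cytokine Il33 at 5.11 FPKM in null skin and 1.95 FPKM in wild-type skin. Adora3, an adenosine receptor of mast cells, fell to 3.35 FPKM in null skin, against 5.87 FPKM in wild-type skin, and Slc45a3 fell to 7.59 FPKM in null skin, against 10.2 FPKM in wild-type skin. Both were also lower in the authors' deposited table. Hpgds, the prostaglandin D synthase of mast cells, the heparin-sulphating enzyme gene Ndst2, Rab27a, which moves granules, and the granule protease gene Ctsg were called only relative to the median. Ctsg was near the limit of the tables, at 0.17 FPKM in null skin and 0.46 FPKM in wild-type skin. It was thus lower before the subtraction too (adjusted p = 0.0497 on the authors' statistic after it, q = 0.084 in the authors' deposited table). Kit was the remaining gene of the 7.

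The Kit ligand and receptor differed in how they behaved. Kitl was at 39.1 FPKM in null skin and 25.9 FPKM in wild-type skin, which was not a difference from the median transcript (0.12 ± 0.14, adjusted p = 0.63) but was higher in the authors' deposited table (q = 0.0001). The total for Kit was 18.4 FPKM in null skin and 19.2 FPKM in wild-type skin, and its 2 transcripts went apart. NM_021099 was at 9.2 FPKM in null skin and 12.8 FPKM in wild-type skin and fell (-0.95 ± 0.15, adjusted p = 2.4e-08 on the authors' statistic), whereas NM_001122733 was at 9.17 FPKM in null skin and 6.34 FPKM in wild-type skin and was not called (adjusted p = 0.88). The authors' deposited table called them in opposite directions (q = 0.0053 for the lower and q = 0.0035 for the higher one). Melanocytes also express Kit, and of 7 tested melanocyte genes 0 rose and 1 fell (3 higher and 1 lower in the authors' deposited table). Among all tested genes 8.27% rose and 10.1% fell (54.6% higher and 3.46% lower in the authors' deposited table). Which cells carried the difference in Kit was not tested. Neither Il1rl1, the receptor of Il33, at 14.5 FPKM in null skin and 11.9 FPKM in wild-type skin, nor Srgn, the granule proteoglycan serglycin, at 94.1 FPKM in null skin and 76.1 FPKM in wild-type skin, was called. The 3 transcripts of Mitf, a transcription factor of mast cells and melanocytes, were marked as failed estimates at E16.5 and were left out.

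In E18.5 dermis the chymases were higher in the En1cre;Cyp26b1f/- library than in the control library, and among the members they differed most. The members summed to 2655 FPKM in mutant dermis and 841 FPKM in control dermis. Folds are given as log2((mutant FPKM + 1)/(control FPKM + 1)) minus the median gene, and with 1 library in each group no test was made. Of 9 members with at least 1 FPKM in either library, 4 were at least 2-fold higher (Cma1, Mcpt4, Tpsab1 and Hdc) and 0 at least 2-fold lower, with a median log2 fold of 0.96. Of the 9, 8 reached 1 FPKM in both libraries and Ms4a2 in the mutant library alone. Centred on fibroblast, endothelial and macrophage genes in place of the median gene, a scaling chosen after the data were seen, 1 member was at least 2-fold higher (Cma1, 1.82) and 2 were at least 2-fold lower (Mrgprb1, -1.36, and Gata2, -1.10), and 5 of the 9 lay below 0. These libraries differed widely throughout: 14.0% of 13398 genes were 2-fold higher and 13.9% were 2-fold lower, and 17.1% of genes with at least 20 FPKM were 2-fold higher.

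Cma1 was at 1072 FPKM in mutant dermis and 130 FPKM in control dermis, a ratio of 8.23 and a log2 fold of 2.91 relative to the median gene. Mcpt4 was at 172 FPKM in mutant dermis and 39.5 FPKM in control dermis, a ratio of 4.36 (log2 fold 1.98). Both chymases, of which Mcpt4 had been lower in null skin at E16.5, were thus higher in the mutant dermis library. Tpsb2 was at 867 FPKM in mutant dermis and 410.2 FPKM in control dermis (log2 fold 0.96), just under the 2-fold limit. The values of Tpsab1 were 116 FPKM in mutant dermis and 41.4 FPKM in control dermis (log2 fold 1.35), and those of Hdc 295 FPKM in mutant dermis and 111 FPKM in control dermis (log2 fold 1.28). Cpa3 was at 102 FPKM in mutant dermis and 83.8 FPKM in control dermis (log2 fold 0.16), and Gata2 at 25.3 FPKM in mutant dermis and 23.4 FPKM in control dermis (log2 fold -0.01), so both lay close to the median gene. Ms4a2 was at 1.38 FPKM in mutant dermis and 0.52 FPKM in control dermis (log2 fold 0.52), and Mrgprb1 at 1.32 FPKM in mutant dermis and 1.57 FPKM in control dermis (log2 fold -0.27). Fcer1a was at 0.84 FPKM in mutant dermis and was listed at 0 in control dermis.

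Ratios to Cpa3 within a library do not depend on any scaling and restate the folds above relative to that gene, the lowest of the 6 compared. Cma1 was 10.5 times Cpa3 in mutant dermis and 1.55 times Cpa3 in control dermis. Mcpt4 was 1.68 times Cpa3 in mutant dermis and 0.471 times Cpa3 in control dermis. For Tpsb2 the ratio was 8.48 in mutant and 4.89 in control dermis, for Hdc 2.89 in mutant and 1.32 in control dermis, and for Tpsab1 1.14 in mutant and 0.493 in control dermis. Of these 5 ratios, that of Cma1 differed by the largest factor, 6.75. Within the set, Cma1 held 40.4% of the summed FPKM in mutant dermis and 15.5% in control dermis, whereas Tpsb2 held 32.7% in mutant dermis and 48.8% in control dermis and was the highest member there.

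**Figure D3:**
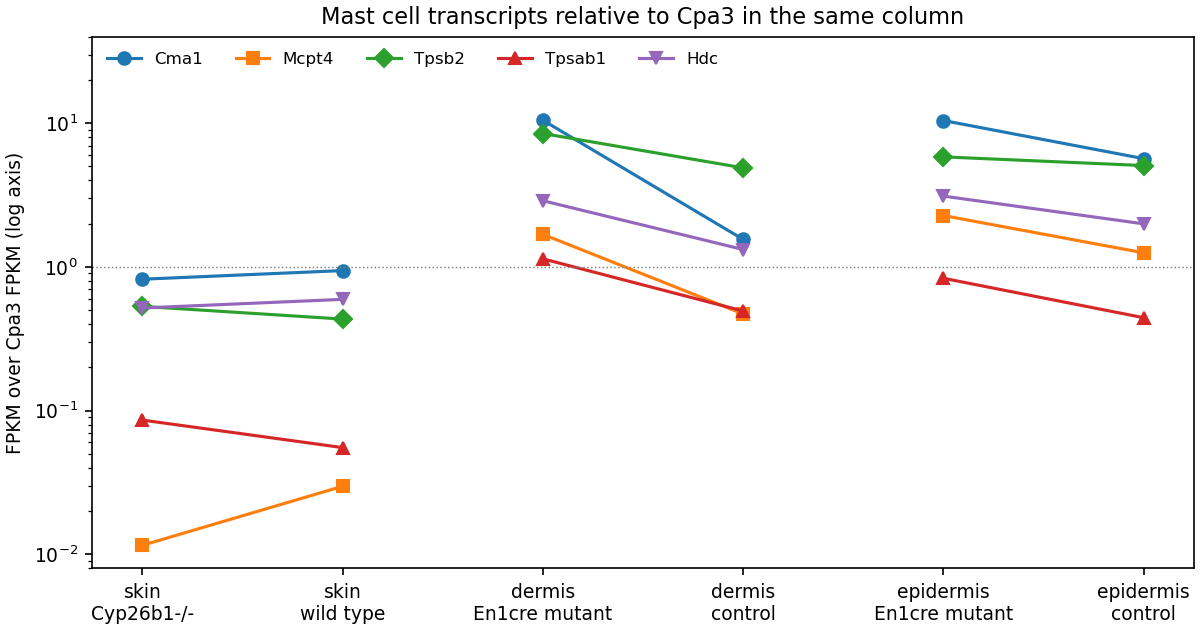
FPKM of 5 granule and histamine genes divided by the FPKM of Cpa3 in the same column, on a log axis, with lines joining the mutant and control of each tissue. All 5 genes lie higher in mutant than in control dermis, which follows from Cpa3 having the lowest dermis fold of the genes compared (0.16). Cma1 lies at 10.5 in mutant and 1.55 in control dermis. In whole skin Mcpt4 lies lower in null skin, at 0.0115, than in wild-type skin, at 0.0297.

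The E16.5 and E18.5 tables were normalised separately, so levels set across them are approximate, but the ratios within a column are not affected. In wild-type whole skin at E16.5, Cpa3 was the highest member and exceeded Mcpt4 33.6-fold. In control dermis at E18.5 it exceeded Mcpt4 2.12-fold, and Tpsb2, Cma1 and Hdc all stood above Cpa3. Age and tissue both differ between these columns and cannot be told apart.

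In E18.5 epidermis the members were at low levels. Their sum was 4.4 FPKM in mutant epidermis and 25.1 FPKM in control epidermis. Of 5 members with at least 1 FPKM in either library (Cma1, Mcpt4, Tpsb2, Cpa3 and Hdc), 3 were at least 2-fold lower and 0 at least 2-fold higher, with a median log2 fold of -1.23. Of these 5, 2 reached 1 FPKM in both libraries (Cma1 and Tpsb2), and the other 3 passed through the control library alone, so their lower values in the mutant library were favoured by the filter. Over 11362 genes, 4.86% were 2-fold lower and 3.49% were 2-fold higher, and among genes from 1 FPKM to below 10 FPKM 5.71% were 2-fold lower. At these levels the pseudocount of 1 weighs heavily, and the count was 5 with a pseudocount of 0.1 and 0 with a pseudocount of 5.

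Tpsb2 was at 1.05 FPKM in mutant epidermis and 8.02 FPKM in control epidermis (log2 fold -1.96), and Cma1 at 1.88 FPKM in mutant epidermis and 8.96 FPKM in control epidermis (-1.61). Hdc was at 0.56 FPKM in mutant epidermis and 3.15 FPKM in control epidermis (-1.23). Cpa3, at 0.18 FPKM in mutant epidermis and 1.58 FPKM in control epidermis (-0.95), and Mcpt4, at 0.41 FPKM in mutant epidermis and 1.98 FPKM in control epidermis (-0.90), were lower by slightly less than the 2-fold limit. Tpsab1 was at 0.15 FPKM in mutant epidermis and 0.7 FPKM in control epidermis, and Gata2 at 0.16 FPKM in mutant epidermis and 0.67 FPKM in control epidermis. Ms4a2 and Fcer1a were listed at 0 in both epidermal libraries, and Mrgprb1 was at 0.01 FPKM in mutant epidermis and 0.03 FPKM in control epidermis. All 8 members with a value above 0 were lower in the mutant epidermis library on the authors' scaling. On that scaling the median gene was lower too, at a log2 fold of -0.18. Tpsab1, Gata2 and Mrgprb1 were under 1 FPKM in both libraries, and Mrgprb1 lay above the median gene (log2 fold 0.15).

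Each of the 5 genes measured in both tissues was higher in mutant than in control dermis and lower in mutant than in control epidermis, relative to the median gene, but 3 of the 5 had these signs when folds were centred on fibroblast, endothelial and macrophage genes, since the dermis folds of Tpsb2 (-0.14) and Cpa3 (-0.93) turned negative. In epidermis 3 of the 5 passed the filter through the control library alone. Of 10838 genes with at least 1 FPKM in both tables, 23.2% had this pair of signs. The mutant dermis level of Cma1 was 570.4 times that of mutant epidermis, and the control dermis level 14.5 times that of control epidermis. For Tpsb2 the ratios were 826 in mutants and 51.1 in controls, and for Cpa3 568 in mutants and 53.1 in controls. The tables of the tissues were normalised separately, and their libraries carry different numbers in the titles, so these ratios describe single libraries. Within the epidermis, Cma1 was 10.4 times Cpa3 in the mutant and 5.67 times Cpa3 in the control library. The mutant ratios divide by low epidermal levels, 1.88 FPKM for Cma1, 1.05 FPKM for Tpsb2 and 0.18 FPKM for Cpa3, and are imprecise.

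**Figure D4:**
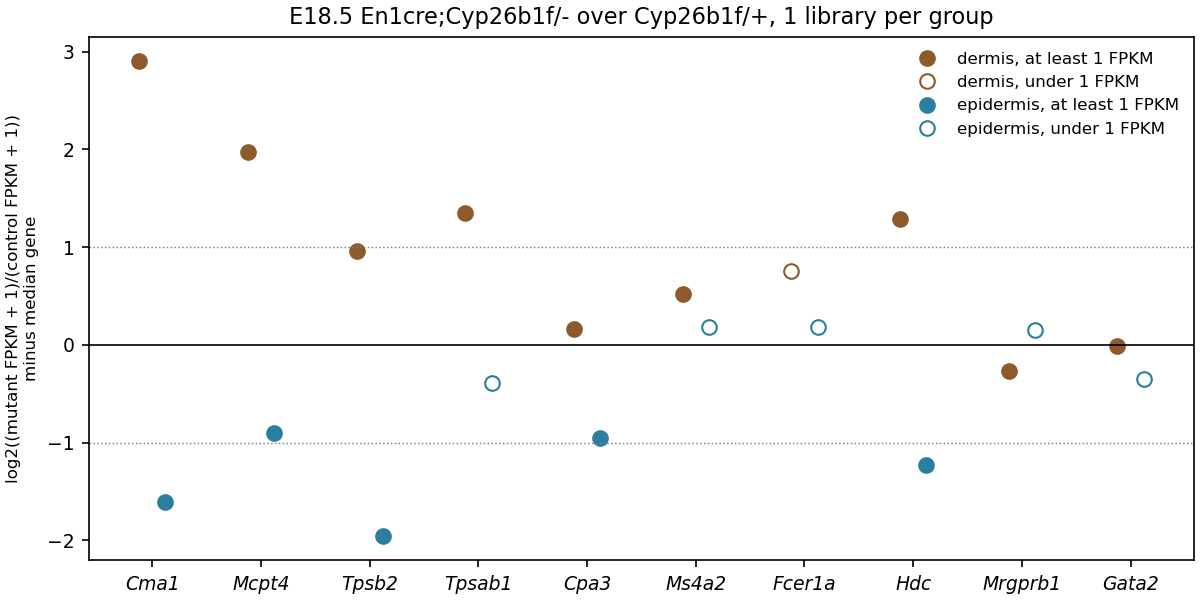
Log2 fold of En1cre;Cyp26b1f/- over Cyp26b1f/+ at E18.5 for each mast cell gene in dermis (brown) and epidermis (blue), on the log2(FPKM + 1) scale minus the median gene; open circles are genes under 1 FPKM in both libraries and dotted lines mark a 2-fold difference. Cma1 lies at 2.91 in dermis and -1.61 in epidermis, and Cpa3 and Gata2 lie near 0 in dermis; centred on fibroblast, endothelial and macrophage genes, the dermis folds of Tpsb2 and Cpa3 would be -0.14 and -0.93.

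A wider view of mast cell genes was mixed. In dermis, 26 of the wider list had at least 1 FPKM, and 6 were 2-fold higher and 1 was 2-fold lower in the mutant library. Over all 13398 such genes, 14.0% were 2-fold higher and 13.9% were 2-fold lower. The median log2 fold of the list was 0.63, below the 1.09 of the fibroblast, endothelial and macrophage genes. The IgE receptor gamma chain Fcer1g was at 66.4 FPKM in mutant dermis and 8.15 FPKM in control dermis, and the granule membrane protein gene Cd63 at 939.7 FPKM in mutant dermis and 200.9 FPKM in control dermis. Alox5ap, the helper of Alox5, was at 30.2 FPKM in mutant dermis and 8.18 FPKM in control dermis, and Maob, Adora3 and Btk were the other 2-fold higher genes, with log2 folds of 1.48, 1.38 and 1.13. Btk, at 2.19 FPKM in mutant dermis and 0.34 FPKM in control dermis, passed the filter through the mutant library alone. Ltc4s, the leukotriene C4 synthase, went the other way, at 7.22 FPKM in mutant dermis and 25.4 FPKM in control dermis. Of 11 macrophage genes, 7 were 2-fold higher and 0 were 2-fold lower in the mutant dermis library. Which cells carried the 6 higher genes of the wider list was not tested.

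Kit was at 14.2 FPKM in mutant dermis and 7.53 FPKM in control dermis (log2 fold 0.71), and its ligand gene Kitl at 3.42 FPKM in mutant dermis and 7.0 FPKM in control dermis (-0.98). Il1rl1 was at 4.53 FPKM in mutant dermis and 1.65 FPKM in control dermis (0.94), Srgn at 115 FPKM in mutant dermis and 54.3 FPKM in control dermis (0.95), and Mitf at 1.51 FPKM in mutant dermis and 2.57 FPKM in control dermis (-0.63). In epidermis, 14 of the list had at least 1 FPKM, and 0 were 2-fold higher and 4 were 2-fold lower in the mutant library. Over all 11362 such genes, 3.49% were 2-fold higher and 4.86% were 2-fold lower. The 4 lower genes of the list were Ltc4s at 0.64 FPKM in mutant and 8.01 FPKM in control epidermis, Alox5ap at 3.69 FPKM in mutant and 18.5 FPKM in control epidermis, Alox5 at 0.38 FPKM in mutant and 3.81 FPKM in control epidermis, and Fcer1g at 4.04 FPKM in mutant and 11.1 FPKM in control epidermis. Ltc4s and Alox5 passed the filter through the control library alone, which favoured their lower values in the mutant library. Of the remaining genes of this group in epidermis, Kit was at 0.58 FPKM in mutant and 2.13 FPKM in control epidermis, Kitl at 0.03 FPKM in mutant and 0.62 FPKM in control epidermis, and Srgn at 2.13 FPKM in mutant and 3.34 FPKM in control epidermis. Mitf was at 0.15 FPKM in mutant and 0.81 FPKM in control epidermis, and Il1rl1 at 0.02 FPKM in mutant and 0.08 FPKM in control epidermis. Which cells carried the 4 lower genes was not tested. Alox5ap exceeded Cpa3 (1.58 FPKM) in control epidermis, but in control dermis it was at 8.18 FPKM and Cpa3 at 83.8 FPKM. In epidermis, 7 dendritic and Langerhans cell genes summed to 0.96 FPKM in mutant and 275 FPKM in control. The sums of 11 macrophage genes there were 95.8 FPKM in mutant and 204 FPKM in control.

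Markers of other cell types differed as well, but not all in the direction of the mast cell genes. In dermis, 8 of 11 macrophage genes and 8 of 10 endothelial genes were higher than the median gene in the mutant library, with median log2 folds of 1.13 and 1.19. Of 4 dendritic and Langerhans cell genes with at least 1 FPKM, 0 were higher (median -0.20), and of 7 melanocyte genes 3 were higher (median -0.30). The macrophage genes summed to 443 FPKM in mutant and 341 FPKM in control dermis, the endothelial genes to 395 FPKM in mutant and 255 FPKM in control dermis, and 5 measured fibroblast genes to 919 FPKM in mutant and 607 FPKM in control dermis. All 7 basal keratinocyte genes were lower, with a summed level of 3793 FPKM in mutant and 12380 FPKM in control dermis, and keratinocyte transcripts were thus abundant in both dermal libraries. In epidermis, 8 fibroblast genes summed to 107 FPKM in mutant and 381 FPKM in control epidermis, 11 macrophage genes to 95.8 FPKM in mutant and 204 FPKM in control epidermis, and 7 dendritic and Langerhans cell genes to 0.96 FPKM in mutant and 275 FPKM in control epidermis. All 7 basal keratinocyte genes were lower in mutant epidermis too (median log2 fold -1.12). They summed to 1874 FPKM in mutant and 5740 FPKM in control epidermis. No fibroblast or macrophage gene was at 0 in any library. Of the dendritic and Langerhans cell list, the langerin gene Cd207 was at 0 in both dermal libraries and in mutant epidermis. The 7 genes of that list together still summed to 50.1 FPKM in mutant and 62.0 FPKM in control dermis. The part of these differences in the mast cell results was not tested. Centred on the fibroblast, endothelial and macrophage genes, 1 member of 5, Tpsb2, was 2-fold lower in mutant epidermis (-1.08) and 0 were 2-fold higher, beside the dermis values given above.

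**Figure D5:**
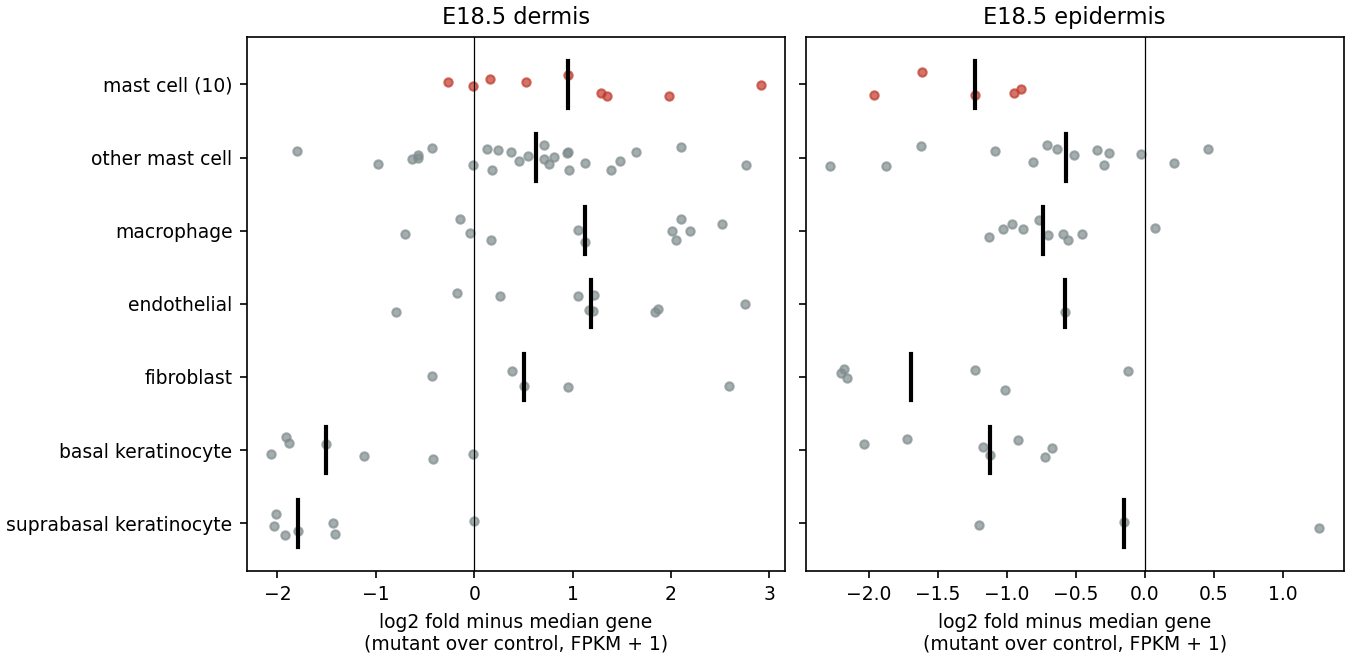
Log2 fold of En1cre;Cyp26b1f/- over Cyp26b1f/+ minus the median gene for genes with at least 1 FPKM in each marker list, in dermis (left) and epidermis (right); each point is 1 gene, the mast cell genes are red, and black bars are list medians. In dermis the mast cell, macrophage and endothelial medians are 0.96, 1.13 and 1.19 and the basal keratinocyte median is -1.51, and in epidermis the mast cell median is -1.23 and the fibroblast median -1.69.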

How the data were processed

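Per the labels' protocols, Trizol-extracted RNA went into Illumina TruSeq libraries. The submitters' processing notes name build mm9, Cuffdiff 1.3.0, Cufflinks, TopHat 1.3.2 and Bowtie 0.12.7.0, without settings. Whether counting used strand is not stated there. The FPKM values deposited by the authors have 1 row per RefSeq transcript, and per the file headers the E16.5 columns pool 2 libraries of a group. The log2 fold and the test statistic, scores deposited by the authors, were undefined where a value was 0, and transcripts with 0 in 1 group kept the authors' call. The p-value and q-value columns are those of the authors' comparison.

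FPKM were summed per symbol, leaving out symbols with any row that Cuffdiff marked FAIL, HIDATA or LOWDATA, in Python 3.11.15 with pandas 2.3.3 and SciPy 1.17.1. Dividing each deposited fold by its test statistic gave its SE. It belongs to the authors' model and is not a spread between animals. The statistic was recomputed after subtracting the median fold and adjusted by Benjamini-Hochberg over 19608 tested transcripts, and a gene's call required a called transcript and no transcript called in the opposite direction. This departs from the authors' q-values, which are given beside it. Own folds, log2 ratios of FPKM plus a pseudocount of 1, shrink low genes towards 0 and were counted for genes reaching 1 FPKM in at least 1 group. No count test was run on FPKM. Where labels do not say that libraries came from separate animals, p-values describe these libraries. Transcript starts in the tables count from 0 (of 9145 loci whose end matched GENCODE, 5607 began 1 base below the annotated start and 224 at it), so 1 was added.

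The members and all gene lists were chosen with earlier results of these data known. Named were all members, every gene of the wider mast cell list that was called at E16.5 or 2-fold different at E18.5, and Kit, Kitl, Mitf, Il1rl1, Fcer1g and Srgn.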

Additional observations from a re-analysis of the deposited data

Results flagged for a closer look

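The genes below had opposite signs in the E18.5 tissues, higher in mutant than in control dermis and lower in mutant than in control epidermis relative to the median gene. The difference between the tissues was not tested, since each group is 1 library. Centred on fibroblast, endothelial and macrophage genes, the folds of Tpsb2 (-0.14) and Cpa3 (-0.93) were negative in dermis too, so for them the opposite signs depend on the scaling. The log2 fold in dermis minus that in epidermis was 4.52 for Cma1, 2.92 for Tpsb2, 2.88 for Mcpt4, 2.52 for Hdc and 1.11 for Cpa3. In epidermis, Mcpt4, Hdc and Cpa3 passed the filter through the control library alone, which favoured their lower values there. Of 10838 genes with at least 1 FPKM in both tissues, 23.2% had this pair of signs.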

How the results depend on the processing

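At E16.5, the q-values of the authors' deposited table gave 3 members higher and 1 lower in place of 1 that rose and 4 that fell, and at a threshold of 0.01 the number that rose was 0. The median member fold moved to -0.092 without median subtraction. In dermis, the 4 members 2-fold higher and 0 2-fold lower became 1 higher and 2 lower when folds were centred on fibroblast, endothelial and macrophage genes, an alternative added after seeing the data, and Tpsb2, Cpa3 and Ms4a2 turned negative. Under the other alternatives 4 or 5 were higher and 0 lower, and Gata2, near 0, changed sign under 3 of them. In epidermis, the 3 members 2-fold lower became 5 with a pseudocount of 0.1, without median subtraction, with the median taken over genes of at least 5 FPKM, and at a 1.5-fold limit. They became 0 with a pseudocount of 5 and 1 when centred on the fibroblast, endothelial and macrophage genes. Taking the highest transcript per symbol or no filter on low values left these counts as they were. The number of member levels at least 2-fold higher in dermis than in epidermis, over both genotypes, was 17, and 17 to 19 under its alternatives. No paired analysis was possible because each E16.5 value is already pooled over both libraries and the E18.5 groups have 1 library each. For the same reason leaving out single libraries was not run. Read depth is unknown, so values below 1 FPKM have no stated precision.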

Other observations

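Mucosal-type mast cell proteases were near absent. Mcpt1 was at 0.23 FPKM in null skin and 0.11 FPKM in wild-type skin, and Mcpt2 at 0.5 FPKM in null skin and 0.63 FPKM in wild-type skin, without a call. Of 5 basophil genes, 0 rose and 0 fell at E16.5 relative to the median, where the authors' deposited table called 2 higher.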
